A study of Saccharomyces cerevisiae with 12 samples.

Results

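The genes described here are the 32 Saccharomyces cerevisiae open reading frames of glycolysis, ethanol and acetate formation and glycerol formation, chosen by name from the 5994 in the deposited table. All 32 were measured on at least 11 of the 12 arrays and were tested in every comparison. Each array set a mutant lacking both HAL4 (SAT4, YCR008W) and HAL5 (YJL165C), kinase genes that promote potassium uptake, against the wild type of the same background, 1 in Cy3 and 1 in Cy5. The 3 groups of 4 arrays are BY4741 in YPD at pH 4.5, W303 in YPD at pH 4.5 and W303 in YPD at pH 6.0, where BY4741 and W303 are laboratory strains and YPD is a rich glucose medium. All cultures, mutant and wild type, grew at 28 ºC to an absorbance of 1.0 at 660 nm. The question is which genes differ between mutant and wild type in each group, and the auxotrophies and the mode of deletion in each background are not given in the sources used here.

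Glycolysis splits a phosphorylated hexose into triose phosphates and carries them to pyruvate. In yeast on glucose most pyruvate is decarboxylated and reduced to ethanol, even in air, and a smaller part is oxidised to acetate and activated to acetyl-CoA for lipid synthesis. A side branch at dihydroxyacetone phosphate makes glycerol, which balances NADH and serves as the osmolyte of yeast. Many steps have isozymes, of which some are made on glucose and others mainly when glucose is scarce or the cell is stressed.

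Values are log ratios of mutant over wild type, read on a log2 scale. Neither the base of the logarithm nor the order of the dyes is given in the sources used here. Reading each value as Cy5 over Cy3 puts the SAT4 signal below wild type on 9 of 10 arrays and that of HAL5 on 9 of 11, and every direction below rests on this reading. SAT4 was measured on 2 arrays of BY4741, where its ratios were -0.73 and -0.96, and lay between -0.23 and -0.09 in W303 pH 4.5. At pH 6.0 its ratios were -0.15, 0.62, -1.74 and -0.57. HAL5 lay between -0.78 and -0.01 in BY4741, between -0.32 and 0.42 in W303 pH 4.5 and between -0.15 and 0.19 on the 3 arrays at pH 6.0 that measured it, so HAL5 was above 0 on 1 array of each W303 group. The median correlation between arrays of a group, across genes, was 0.623 in BY4741, 0.908 in W303 pH 4.5 and 0.487 in W303 pH 6.0. The array of W303 pH 6.0 replicate 3 stood apart, with a mean correlation of 0.186 with its group and 4418 values, the fewest of the 12 arrays. Genes are called here where the limma p, adjusted by Benjamini-Hochberg over the whole table, is under 0.05. No probe intensities were used, so signal over background is unknown.

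The values of the most abundant glycolytic transcripts are not independent of each other. On 11 of the 12 arrays, TDH3, a glyceraldehyde-3-phosphate dehydrogenase gene, had the same deposited value, within 0.001, as 1 or more other genes of the 32. Between 2 and 11 of the 32 genes, TDH3 included, held that value on an array. In all, 67 of the 380 values of these genes were such shared values. TDH3 shared its value on 11 arrays, TDH2 on 10, FBA1, ENO1 and PDC1 on 7 each, ENO2 and CDC19 on 6 each, TDH1 on 5, PGK1 on 4, ADH1 on 2 and TPI1 and PDC5 on 1 each. The other 20 genes never held it.

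Genes outside these pathways held the shared value as well. Between 7 and 84 open reading frames of an array lay within 0.001 of it, where windows of the same width beside it held a median of 4 to 19 on these 11 arrays. On 3 of the 11, BY4741 replicate 1 and W303 pH 4.5 replicates 3 and 4, the fullest neighbouring window held as many. TEF2, a translation elongation factor gene, and CCW12, a cell wall protein gene, shared it on 9 of the 11 arrays and TEF1 on 8, and these were picked after their values were seen. In BY4741, TDH2, TDH3, ENO1 and ENO2 all had the values -0.14, 0.32, 0.09 and 0.16 on replicates 1 to 4. A shared value is therefore not taken here as a separate measurement of each gene. Its cause was not tested, nor was whether some matches are separate values that lie close together. Each count below is therefore also given with these values left blank, an alternative added after the data were seen.

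**Figure D1:**
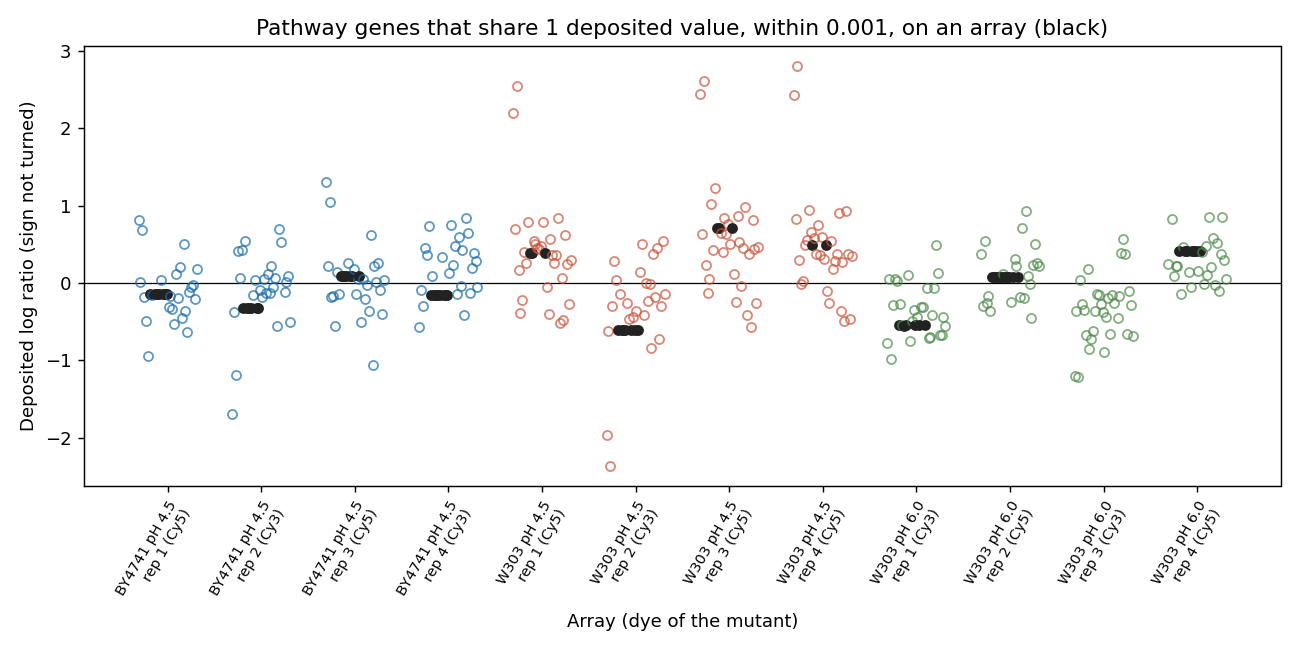
Deposited log ratio of each of the 32 genes on each of the 12 arrays, with the sign as deposited and the dye of the mutant in brackets. Black points are genes whose value lies within 0.001 of the TDH3 value of the same array when at least 1 other of the 32 genes does too; they form a flat row of 2 to 11 genes on 11 arrays and are missing on W303 pH 6.0 replicate 3.

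In the BY4741 mutant 3 of the 32 genes rose and 7 fell, where 15.9% of all genes rose and 15.4% fell. In the W303 mutant at pH 4.5 25 rose and 5 fell. At pH 6.0 in W303 2 rose and 0 fell, against 1.92% and 1.44% of all genes. Of all genes tested, limma called 31.4% in BY4741, 69.2% in W303 pH 4.5 and 3.36% in W303 pH 6.0. The share of the 32 genes called in BY4741, 31.2%, thus lay near that of all genes, and their median log2 ratio of 0.02 lay near the median of all genes, -0.01. In W303 pH 4.5, 36.1% of all genes were called higher and 33.1% lower, while the median of the 32 genes was 0.45 and that of all genes 0.03. At pH 6.0 the 32 genes had a median of 0.31 against 0.01 for all genes, 29 of the 32 means were above 0 where 50.8% of all genes were, and 18 had an unadjusted limma p below 0.05 where 19.5% of all genes did.

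With the shared values left blank, 3 genes of 24 tested rose and 7 fell in BY4741, where 16.1% and 15.6% of all genes did. In W303 pH 4.5, 22 of 29 rose and 5 fell (36.1% and 33.1% of all genes), and at pH 6.0 2 of 24 rose and 0 fell (1.9% and 1.45% of all genes). The median of the genes tested then moved to -0.14 in BY4741 and to 0.34 in W303 pH 4.5, and it was 0.30 at pH 6.0. Of the 24 means at pH 6.0, 20 were then above 0, and 10 genes had an unadjusted limma p below 0.05. With all values kept, these shares were 50.8% and 19.5% of all genes. Without W303 pH 6.0 replicate 3, the array that stood apart, 4 genes rose at pH 6.0, and without replicate 1, 2 or 4 none was called. ADH4 could not be tested without replicate 1, 2 or 4, as it had no value on replicate 3 and the fit needs 3 values. The shares of all genes called without 1 replicate are not given here, so these counts have no comparison. In BY4741, 6 genes were called without replicate 1, 5 without replicate 3 and 5 without replicate 4.

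**Figure D2:**
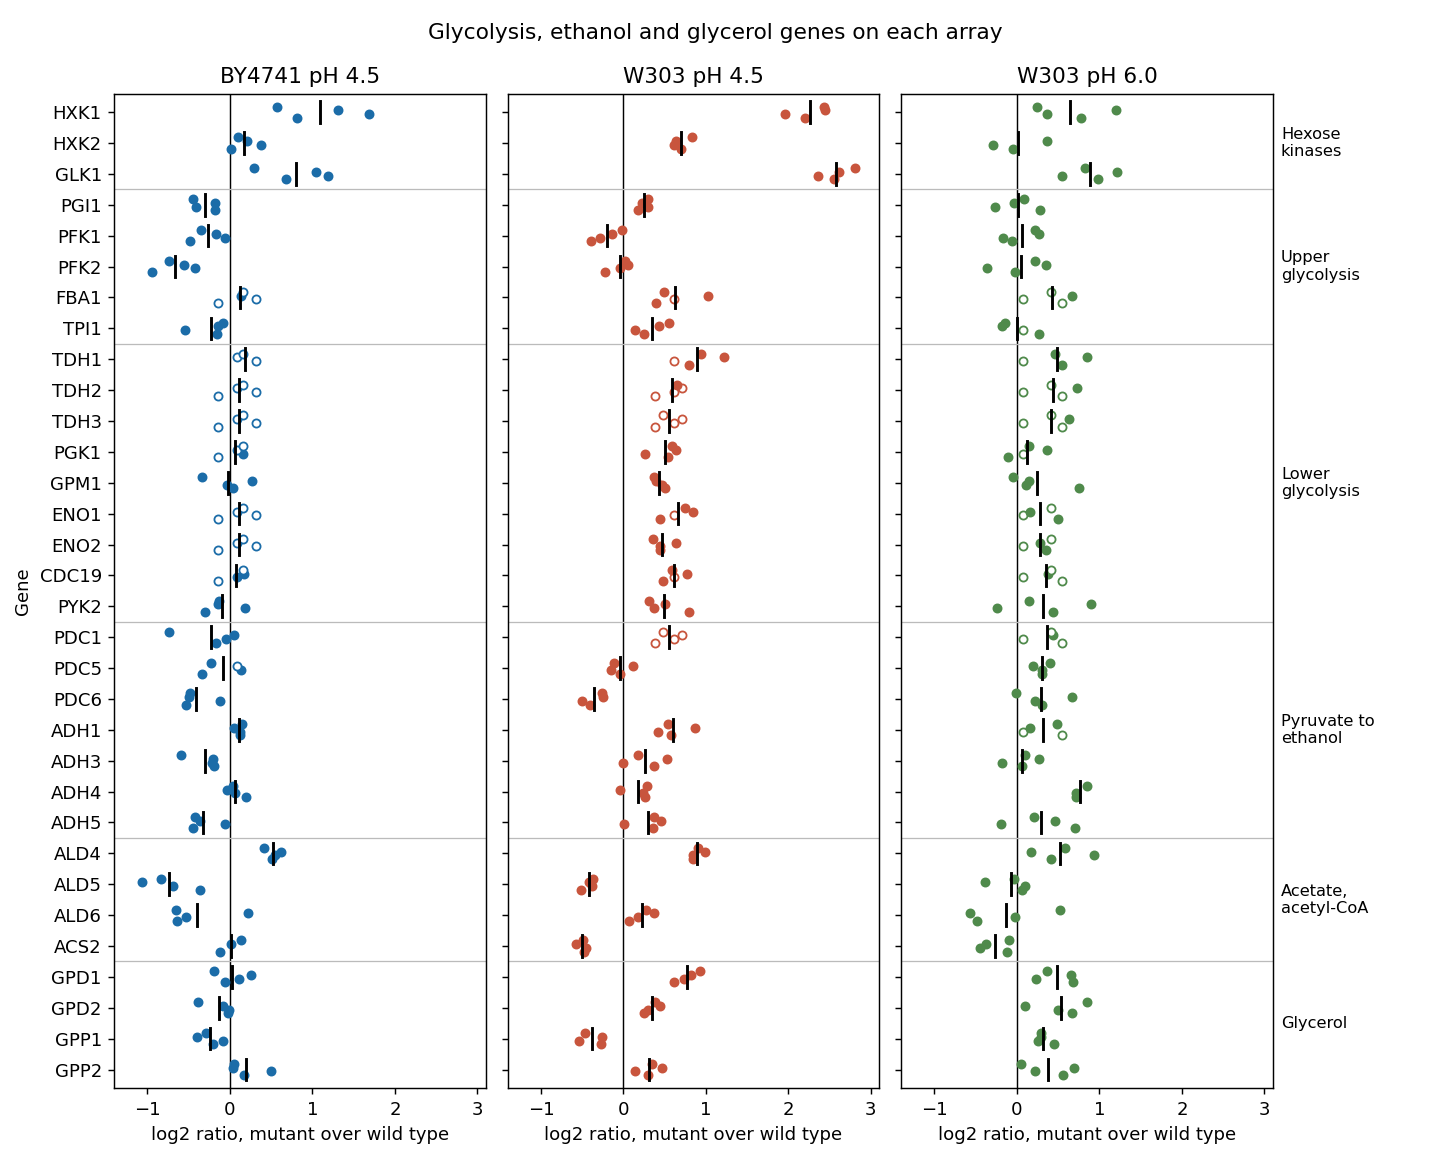
Log2 ratio of mutant over wild type for each gene on each array, in BY4741 at pH 4.5, W303 pH 4.5 and W303 pH 6.0. Each point is 1 array, open points are shared values, the black bar is the group mean, and grey lines part the steps of the pathway; HXK1 and GLK1 lie farthest to the right in both pH 4.5 panels, with means of 2.26 and 2.58 in W303 pH 4.5.

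HXK1 and GLK1, which act on glucose itself, had the largest ratios of the 32 genes at pH 4.5 in both backgrounds. HXK1 (YFR053C), a hexokinase gene that is repressed on glucose in wild-type yeast, had log2 ratios of 0.81, 1.69, 1.31 and 0.57 on the 4 arrays of BY4741. In W303 pH 4.5 its ratios were 2.20, 1.96, 2.44 and 2.43. At pH 6.0 they were 0.78, 0.37, 1.20 and 0.25. All 12 values were above 0, and every W303 value at pH 4.5 lay above every value of the other groups. HXK1 rose 2.14-fold in BY4741 (log2 1.10 ± 0.18 SE, n = 4, adjusted p = 0.00609) and 4.78-fold in W303 pH 4.5 (log2 2.26 ± 0.09 SE, n = 4, adjusted p = 1.56e-07). At pH 6.0 its mean of 0.65 ± 0.18 (SE, n = 4, adjusted p = 0.127) was not called.

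GLK1 (YCL040W), for glucokinase, which phosphorylates glucose but not fructose, had ratios of 0.68, 1.19, 1.05 and 0.30 in BY4741. In W303 pH 4.5 it had 2.55, 2.36, 2.61 and 2.81, and at pH 6.0 0.98, 0.54, 1.21 and 0.83. The pH 4.5 values of W303 again lay above all the others, while those of BY4741 and of W303 pH 6.0 overlapped. GLK1 was the 1 gene of the 32 called in all 3 groups, with a rise of 1.74-fold in BY4741 (log2 0.80 ± 0.15 SE, adjusted p = 0.00906). It rose 5.98-fold in W303 pH 4.5 (log2 2.58 ± 0.08 SE, adjusted p = 7.41e-08) and 1.85-fold at pH 6.0 (log2 0.89 ± 0.13 SE, adjusted p = 0.0352, n = 4 in each limma fit). The BY4741 call was lost without replicate 3 (0.72, adjusted p = 0.0558), and the pH 6.0 call without replicate 1 (0.86, adjusted p = 0.206), 2 (1.01, adjusted p = 0.075) or 4 (0.91, adjusted p = 0.13).

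HXK2 (YGL253W), for the main hexokinase on glucose, differed from both. Its ratios were 0.02, 0.38, 0.21 and 0.10 in BY4741, 0.69, 0.61, 0.64 and 0.83 in W303 pH 4.5, and -0.05, -0.29 and 0.37 on the 3 arrays at pH 6.0 that measured it. HXK2 rose 1.62-fold in W303 pH 4.5 (log2 0.69 ± 0.06 SE, n = 4, adjusted p = 2.03e-05) and was not called in BY4741 (0.18, adjusted p = 0.129) or at pH 6.0 (0.01, adjusted p = 0.988). On each of the 11 arrays that measured them all, the ratios of HXK1 and GLK1 lay above that of HXK2, by 0.48 to 1.80 for HXK1 and by 0.20 to 1.98 for GLK1. HXK1 and HXK2 are close in sequence, and whether their probes cross-react was not tested.

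The next steps, from glucose 6-phosphate to triose phosphate, did not move in 1 direction. PGI1 (YBR196C), for phosphoglucose isomerase, had ratios of -0.18, -0.41, -0.18 and -0.45 in BY4741 and of 0.17, 0.30, 0.23 and 0.30 in W303 pH 4.5. These groups did not overlap and had opposite signs on all 8 arrays. PGI1 fell by 0.30 ± 0.07 (SE, n = 4, adjusted p = 0.0241) in BY4741 and rose in W303 pH 4.5 by 0.25 ± 0.06 (SE, n = 4, adjusted p = 0.0047), with a mean of 0.02 at pH 6.0. The BY4741 call was lost without replicate 2, 3 or 4 (adjusted p = 0.0632, 0.0614 and 0.0933).

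PFK1 (YGR240C) and PFK2 (YMR205C) encode the alpha and beta subunits of phosphofructokinase. PFK2 had ratios of -0.95, -0.43, -0.55 and -0.73 in BY4741, against -0.22, -0.04, 0.05 and 0.02 in W303 pH 4.5. It fell 1.59-fold in BY4741 (log2 -0.67 ± 0.09 SE, n = 4, adjusted p = 0.00411) and was not called in W303 at either pH (means -0.05 and 0.05). PFK1 fell by 0.20 ± 0.07 in the W303 pH 4.5 group (SE, n = 4, adjusted p = 0.0338). Its means were -0.27 ± 0.09 in the BY4741 group (SE, n = 4, adjusted p = 0.0541, not called) and 0.06 at pH 6.0. The W303 call was lost without replicate 1, 2 or 3 (-0.14, -0.18 and -0.23) and with array weights (-0.13, adjusted p = 0.0999). PFK2 lay below PFK1 on all 4 arrays of BY4741 and above it on all 4 of W303 pH 4.5.

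FBA1 (YKL060C), for aldolase, rose in W303 pH 4.5 by 0.63 ± 0.10 (SE, n = 4, adjusted p = 0.000469), on arrays with 0.40, 0.61, 1.02 and 0.49, of which 1 was a shared value. TPI1 (YDR050C), for triose phosphate isomerase, had 0.25, 0.15, 0.43 and 0.55 there and rose by 0.34 ± 0.08 (SE, n = 4, adjusted p = 0.00359). In BY4741 TPI1 had -0.15, -0.54, -0.14 and -0.09, all below 0, with a mean of -0.23 that was not called (adjusted p = 0.0969). Neither gene was called at pH 6.0, where the means were 0.43 for FBA1 and 0.01 for TPI1. There 3 of the 4 FBA1 values and 1 of the 4 TPI1 values were shared ones, and FBA1 could not be tested without them.

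All 9 genes of the lower part of glycolysis, from glyceraldehyde 3-phosphate to pyruvate, rose in W303 pH 4.5, where 36.1% of all genes rose, and none was called in BY4741 or at pH 6.0. Their means in W303 pH 4.5 ran from 0.43 for GPM1, the phosphoglycerate mutase gene, to 0.89 for TDH1. In BY4741 their means ran from -0.10 to 0.19 and at pH 6.0 from 0.12 to 0.48. With the shared values left blank, 7 of the 9 could still be tested in W303 pH 4.5 and all 7 were higher, whereas 2 could be tested in BY4741, GPM1 and PYK2.

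TDH1 (YJL052W), TDH2 (YJR009C) and TDH3 (YGR192C) encode glyceraldehyde-3-phosphate dehydrogenase, TDH3 being the main isozyme during growth on glucose. TDH1 had ratios of 0.79, 0.61, 1.22 and 0.94 in W303 pH 4.5, and 0.55, 0.07, 0.85 and 0.46 at pH 6.0. On the 3 BY4741 arrays that measured TDH1, all 3 values were shared ones. TDH1 rose 1.85-fold in W303 pH 4.5 (log2 0.89 ± 0.09 SE, n = 4, adjusted p = 5.02e-05), and by 0.99 on the 3 arrays left without the shared value (adjusted p = 5.27e-05). TDH2 and TDH3, with means of 0.59 and 0.55, were equal within 0.001 on 10 of 12 arrays and could not be tested without the shared values.

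The later steps gave like values in W303 pH 4.5. PGK1 (YCR012W), for phosphoglycerate kinase, and GPM1 (YKL152C) held no shared value there. PGK1 had ratios of 0.54, 0.26, 0.64 and 0.59 and rose by 0.51 ± 0.07 (SE, n = 4, adjusted p = 0.000339). GPM1 had 0.50, 0.46, 0.40 and 0.37 and rose by 0.43 ± 0.06 (SE, n = 4, adjusted p = 0.000207). GPM1 never held the shared value on any array, and in BY4741 its ratios of 0.04, -0.04, 0.26 and -0.34 lay on both sides of 0.

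The enolase genes ENO1 (YGR254W) and ENO2 (YHR174W) rose by 0.66 and 0.47 in W303 pH 4.5. CDC19 (YAL038W), for the main pyruvate kinase, had 0.47, 0.61, 0.77 and 0.59 and rose by 0.61 ± 0.07 (SE, n = 4, adjusted p = 5.64e-05). PYK2 (YOR347C), for the minor pyruvate kinase, which is glucose-repressed, had 0.79, 0.36, 0.50 and 0.31 and rose by 0.49 ± 0.08 (SE, n = 4, adjusted p = 0.000806). The TDH genes, like ENO1 and ENO2, are near-identical in sequence, so that their single values are uncertain beside the sharing of values.

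Pyruvate decarboxylase and alcohol dehydrogenase, which make ethanol, split by isozyme. PDC1 (YLR044C), for the main decarboxylase, had 0.39, 0.61, 0.71 and 0.48 in W303 pH 4.5, all of them shared values equal to those of TDH3, and a mean of 0.55 (adjusted p = 0.000146). In BY4741, where it held no shared value, PDC1 had -0.17, -0.05, 0.05 and -0.74 and was not called (mean -0.23, adjusted p = 0.234). PDC5 (YLR134W), a minor decarboxylase gene, was not called in any group, with means of -0.09, -0.05 and 0.30 in BY4741, W303 pH 4.5 and W303 pH 6.0.

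PDC6 (YGR087C), the other minor decarboxylase gene, had ratios of -0.54, -0.12, -0.50 and -0.48 in BY4741 and of -0.40, -0.50, -0.24 and -0.26 in W303 pH 4.5. At pH 6.0 it had 0.31, 0.22, 0.67 and -0.01. It was below 0 on all 8 arrays at pH 4.5 and above 0 on 3 of the 4 at pH 6.0, with no overlap between the W303 groups. PDC6 fell by 0.41 ± 0.09 (SE, n = 4, adjusted p = 0.0156) in BY4741 and by 0.35 ± 0.07 (SE, n = 4, adjusted p = 0.0014) in W303 pH 4.5. The BY4741 call was lost without replicate 1, 3 or 4 (adjusted p = 0.0531, 0.0761 and 0.0649).

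Among the alcohol dehydrogenases, ADH1 (YOL086C), for the enzyme that makes most ethanol, had 0.57, 0.41, 0.87 and 0.54 in W303 pH 4.5, none of them shared. It rose by 0.60 ± 0.08 (SE, n = 4, adjusted p = 0.000183) there, and its BY4741 values of 0.12, 0.13, 0.05 and 0.15 gave a mean of 0.11 (adjusted p = 0.201). ADH3 (YMR083W), for the mitochondrial enzyme, had -0.19, -0.22, -0.20 and -0.59 in BY4741 and fell by 0.30 ± 0.09 (SE, n = 4, adjusted p = 0.0388). In W303 pH 4.5 it rose by 0.27 ± 0.09 (SE, n = 4, adjusted p = 0.0231).

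ADH5 (YBR145W), a minor alcohol dehydrogenase gene, likewise fell by 0.33 ± 0.08 (SE, n = 4, adjusted p = 0.0271) in BY4741 and rose in W303 pH 4.5 by 0.30 ± 0.08 (SE, n = 4, adjusted p = 0.00919). PGI1, ADH3 and ADH5 were the 3 genes of the 32 called lower in BY4741 and higher in W303, a pattern of 0.947% of all genes tested in both. These calls are weak in BY4741: that of ADH3 was lost without any 1 of replicates 1 to 4 (-0.34, -0.33, -0.33 and -0.21) and with arrays scaled to the same median absolute value (-0.32, adjusted p = 0.0524), and that of ADH5 without replicate 1, 3 or 4 (-0.28, -0.31 and -0.29). The W303 call of ADH3 was lost without replicate 1 or 3 (0.23 and 0.18) and with a dye term (0.18, adjusted p = 0.0894).

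ADH4 (YGL256W), an alcohol dehydrogenase gene of another protein family, was 1 of the 2 genes called at pH 6.0. It had 0.71, 0.72 and 0.85 on the 3 arrays that measured it, and no value on replicate 3. ADH4 rose 1.69-fold there (log2 0.76 ± 0.12 SE, n = 3, adjusted p = 0.0479), and this call was lost with a dye term in the fit (0.75, adjusted p = 0.099) and with genes on at least 2 arrays tested (0.76, adjusted p = 0.0555). Its means were 0.07 in BY4741 and 0.18 in W303 pH 4.5, the latter just called (adjusted p = 0.0487) and lost without replicate 1, 2 or 4 (0.16, 0.16 and 0.15).

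The aldehyde dehydrogenases that make acetate moved in opposite directions. ALD4 (YOR374W), for the main mitochondrial enzyme, had 0.51, 0.55, 0.62 and 0.42 in BY4741, 0.84, 0.84, 0.99 and 0.91 in W303 pH 4.5, and 0.41, 0.93, 0.17 and 0.58 at pH 6.0. It was above 0 on all 12 arrays and rose by 0.52 ± 0.06 (SE, n = 4, adjusted p = 0.00237) in BY4741 and by 0.89 ± 0.06 (SE, n = 4, adjusted p = 3.58e-06) in W303 pH 4.5. At pH 6.0 its mean of 0.52 ± 0.15 was not called (SE, n = 4, adjusted p = 0.127).

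ALD5 (YER073W), for a minor mitochondrial enzyme, had -0.36, -0.69, -1.06 and -0.84 in BY4741 and -0.52, -0.38, -0.41 and -0.36 in W303 pH 4.5. It fell by 0.74 ± 0.11 (SE, n = 4, adjusted p = 0.00535) and by 0.42 ± 0.06 (SE, n = 4, adjusted p = 0.000281) in these groups, and its mean at pH 6.0 was -0.07. ALD6 (YPL061W), for the main cytosolic enzyme, rose in W303 pH 4.5 by 0.22 ± 0.07 (SE, n = 4, adjusted p = 0.0162) but not without replicate 3 (0.17, adjusted p = 0.0822) or replicate 4 (0.21, adjusted p = 0.0749). In BY4741 ALD6 had -0.64, -0.53, 0.22 and -0.65, of which replicate 3 lay apart, and was not called. The ratio of ALD4 lay above that of ALD6 on all 12 arrays, by 0.06 to 1.15.

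ACS2 (YLR153C), for the acetyl-CoA synthetase used on glucose, had -0.48, -0.45, -0.57 and -0.49 in W303 pH 4.5 and fell by 0.50 ± 0.06 (SE, n = 4, adjusted p = 8.5e-05). On the 3 BY4741 arrays that measured it the ratios were -0.12, 0.02 and 0.13, above all 4 of W303. At pH 6.0 ACS2 had a mean of -0.26 that was not called (adjusted p = 0.269), though it lay below 0 on all 4 arrays.

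In the glycerol branch, GPD1 (YDL022W), for the glycerol-3-phosphate dehydrogenase induced by osmotic stress, had 0.61, 0.73, 0.82 and 0.93 in W303 pH 4.5 and 0.68, 0.23, 0.66 and 0.37 at pH 6.0. In BY4741 it had -0.06, 0.11, 0.26 and -0.19, below all 4 values of W303 at the same pH. GPD1 rose 1.71-fold in W303 pH 4.5 (log2 0.77 ± 0.07 SE, n = 4, adjusted p = 1.8e-05) and was not called in BY4741 (0.03, adjusted p = 0.822) or at pH 6.0 (0.48, adjusted p = 0.0984). GPD2 (YOL059W), for the isozyme tied to NADH balance, rose by 0.34 ± 0.06 (SE, n = 4, adjusted p = 0.00104) under the same condition. It was not called in BY4741 (-0.13, adjusted p = 0.284) or at pH 6.0 (0.53, adjusted p = 0.125).

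The glycerol-3-phosphate phosphatases GPP1 (YIL053W) and GPP2 (YER062C) catalyse the last step. GPP1 had -0.21, -0.09, -0.40 and -0.29 in BY4741, -0.28, -0.54, -0.26 and -0.47 in W303 pH 4.5, and 0.45, 0.26, 0.29 and 0.29 at pH 6.0. It was below 0 on all 8 arrays at pH 4.5 and above 0 on all 4 at pH 6.0. GPP1 fell by 0.24 ± 0.07 (SE, n = 4, adjusted p = 0.0427) in BY4741, a call lost without replicate 1, 3 or 4 (-0.26, -0.19 and -0.23), and by 0.38 ± 0.07 (SE, n = 4, adjusted p = 0.00106) in W303 pH 4.5. GPP2, the osmotic stress-induced of the pair, had 0.29, 0.14, 0.46 and 0.35 in W303 pH 4.5 and rose by 0.31 ± 0.07 (SE, n = 4, adjusted p = 0.00329). GPP2 was above 0 on all 12 arrays, and above GPP1 on 10 of them; the probes of these close paralogs may not separate them, which was not tested.

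Across the groups at pH 4.5, 3 genes rose in both backgrounds, HXK1, GLK1 and ALD4, and 3 fell in both, PDC6, ALD5 and GPP1. Among all genes tested in both, 12.6% rose in both and 11.3% fell in both. HXK1, GLK1, TDH1, ADH1, ALD4 and GPP2 were the 6 genes above 0 on every array that measured them. The share of all genes above 0 on every array was not computed, so this count has no comparison. TDH1 held the shared value on 5 of its 11 arrays and ADH1 on 2, so these signs are not all taken as separate measurements.

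**Figure D3:**
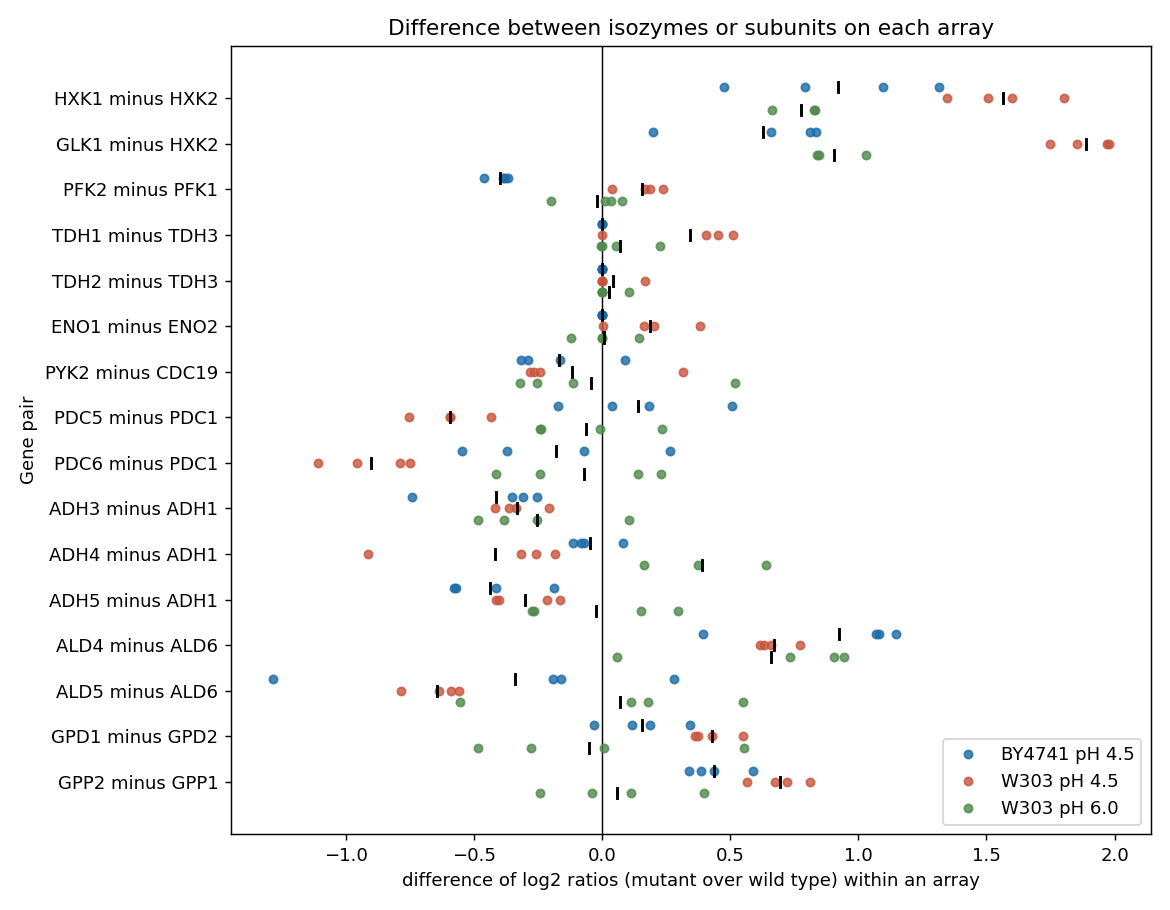
Difference of the log2 ratios of 2 related genes within each array, for 16 pairs of isozymes or subunits, with 1 point per array coloured by group and a black bar at the group mean. HXK1 and GLK1 lie to the right of HXK2, and ALD4 to the right of ALD6, on every array, while the TDH2 and TDH3 points pile up at 0, being equal within 0.001 on 10 arrays.

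Whether the effect of the mutation differed between backgrounds was tested as W303 minus BY4741 at pH 4.5. Of the 32 genes, 20 had a higher ratio in W303 and 1, ACS2, a lower one, where limma called 10.9% of all genes higher and 9.55% lower. With the shared values left blank, 22 genes could be tested, of which 10 were higher and 1 lower, against 10.5% and 9.53% of all genes. With the shared values kept, the arrays of the groups did not overlap for 23 genes higher in W303 and 1 lower. This held for 20.6% and 16.5% of all genes. Of the 23, 11 held the shared value on 1 array or more, so they are not all taken as separate measurements. Of the 20 genes that never held it, 12 were higher and 1 lower.

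GLK1 had the largest difference of the 32, 1.78 ± 0.19 (SE, adjusted p = 0.000127), followed by HXK1 with 1.16 ± 0.25 (SE, adjusted p = 0.00922). GPD1 differed by 0.74 ± 0.13 (SE, adjusted p = 0.00364) and PGI1 by 0.56 ± 0.12 (SE, adjusted p = 0.00922). PFK2, which fell in BY4741, differed by 0.62 ± 0.16 (SE, adjusted p = 0.0188) and ACS2 by -0.51 ± 0.12 (SE, adjusted p = 0.0124). The PFK2 call was lost without BY4741 replicate 1 or 4 (0.53 and 0.60) and without W303 pH 4.5 replicate 3 or 4 (0.59 and 0.60). For the other genes called the same way in both, the difference was 0.06 for PDC6 (95% interval -0.26 to 0.37) and -0.14 for GPP1 (95% interval -0.36 to 0.08). It was 0.37 for ALD4 (95% interval 0.07 to 0.67) and 0.32 for ALD5 (95% interval -0.00 to 0.64), and none of these 4 was called.

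The differences between backgrounds depended on the scaling of the arrays. With all 12 arrays scaled to the same median absolute value, 9 of the 32 genes were called, the GLK1 call stayed and the HXK1 difference was 0.49 (adjusted p = 0.202). Without W303 replicate 3 or 4 of pH 4.5, 8 genes were called, and without BY4741 replicate 1, 3 or 4, 11, 12 and 9.

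**Figure D4:**
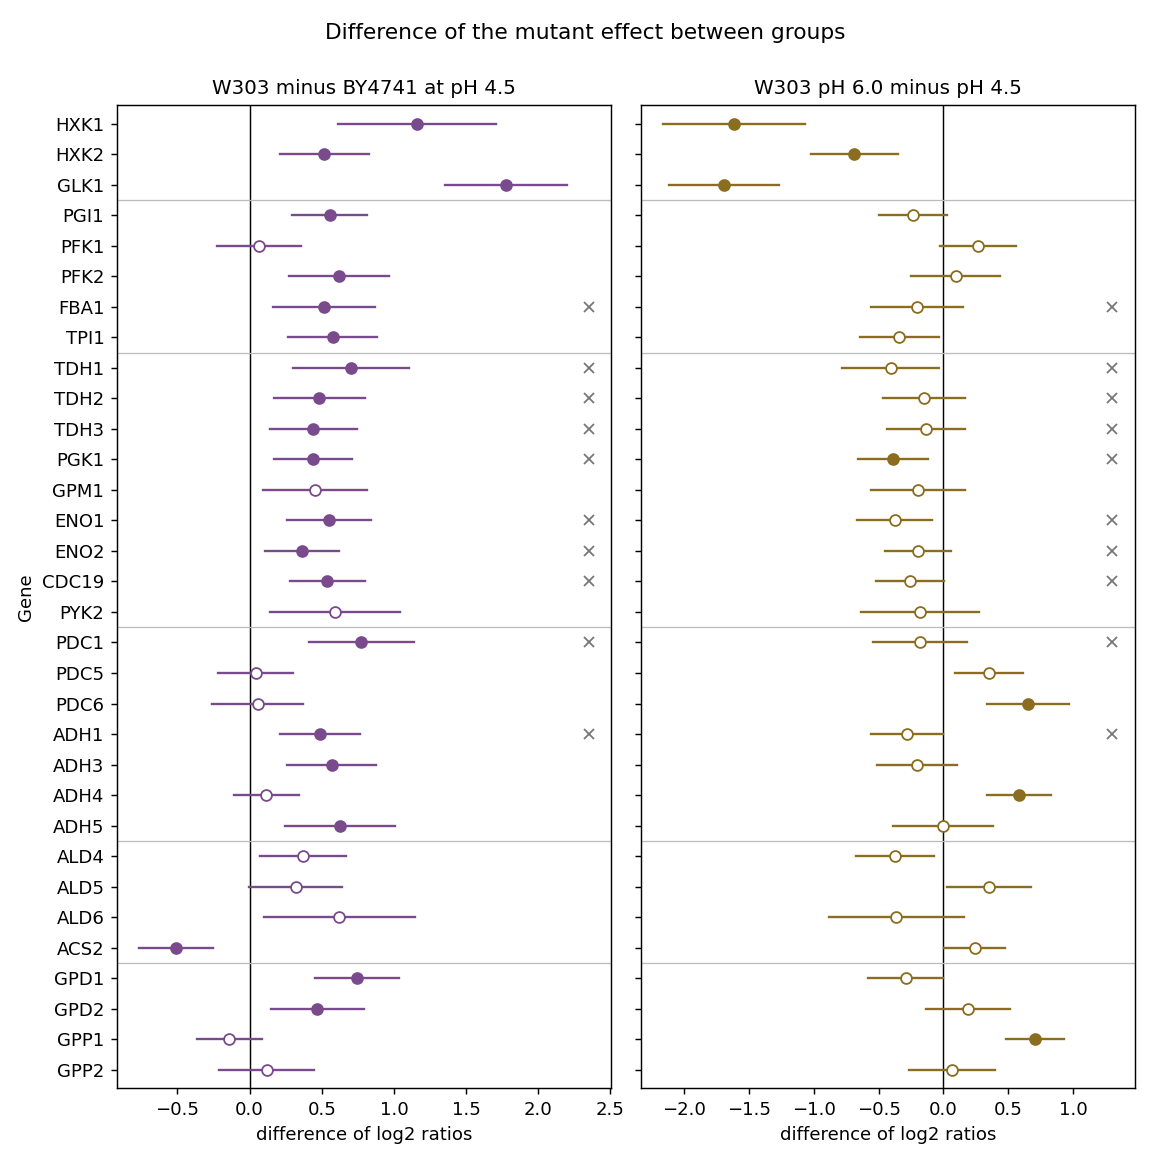
Difference of the log2 ratios between groups for each gene with its 95% interval, W303 minus BY4741 at pH 4.5 on the left and W303 pH 6.0 minus pH 4.5 on the right. Filled points were called by limma and a grey cross marks the 10 genes that could not be tested once shared values were left blank; most points lie right of 0 on the left, and GLK1 and HXK1 lie farthest left, at -1.69 and -1.61, on the right.

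The effect of medium pH in W303 was tested as pH 6.0 minus pH 4.5, which uses the same W303 arrays at pH 4.5 as the comparison of backgrounds, so the 2 sets of differences are not independent. Of the 32 genes, 3 had a higher ratio at pH 6.0 and 4 a lower one, where limma called 10.7% of all genes higher and 13.2% lower. With the shared values left blank, 22 genes could be tested, of which 4 were higher and 3 lower, against 10.8% and 13.1% of all genes. With the shared values kept, the arrays did not overlap for 5 genes higher and 3 lower at pH 6.0, where this held for 11.4% and 14.9% of all genes. Of the 20 genes that never held the shared value, 4 were higher and 3 lower.

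All 3 hexose kinase genes had lower ratios at pH 6.0. The difference was -1.69 ± 0.19 (SE, adjusted p = 0.000153) for GLK1, -1.61 ± 0.25 (SE, adjusted p = 0.000876) for HXK1 and -0.69 ± 0.15 (SE, adjusted p = 0.00779) for HXK2. PGK1 was the fourth gene with a lower ratio (-0.39 ± 0.12 SE, adjusted p = 0.0397), although its arrays overlapped. With the shared values left blank it was not tested, since the fit needs 3 values in every group and BY4741 kept 1. PGK1 kept 4 values in W303 pH 4.5 and 3 at pH 6.0. Its call was lost without replicate 1, 2 or 4 of pH 6.0 (-0.31, -0.37 and -0.40) and without replicate 1, 3 or 4 of pH 4.5 (-0.38, -0.34 and -0.36). It was also lost with only these 2 groups in the limma fit (adjusted p = 0.0777) and with a dye term (adjusted p = 0.0514). The same held with arrays centred on the median (limma adjusted p = 0.0539) or scaled to the same median absolute value (adjusted p = 0.113).

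The 3 genes with a higher ratio at pH 6.0 were GPP1, PDC6 and ADH4. GPP1 differed by 0.70 ± 0.10 (SE, adjusted p = 0.000564), PDC6 by 0.65 ± 0.14 (SE, adjusted p = 0.00702) and ADH4 by 0.58 ± 0.11 (SE, adjusted p = 0.00363). For GPP1 and PDC6 the mean passed from below 0 at pH 4.5 to above 0 at pH 6.0, but neither mean at pH 6.0, 0.32 and 0.30, was called (adjusted p = 0.141 and 0.304). No lower glycolysis gene except PGK1 was called in this comparison; for GPM1 the difference was -0.20 with a 95% interval from -0.56 to 0.16.

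Another 41 genes of these pathways, among them minor isozymes, regulators and the entry of pyruvate into mitochondria, were read from the same fits. Of those tested, 12 of 40 rose and 2 fell in BY4741, 18 of 37 rose and 8 fell in W303 pH 4.5, and 2 of 35 rose and 0 fell at pH 6.0. The matching shares of all genes were 15.9% and 15.4% in BY4741, 36.1% and 33.1% in W303 pH 4.5, and 1.92% and 1.44% at pH 6.0. Their median was 0.03 in BY4741, 0.24 in W303 pH 4.5 and 0.04 at pH 6.0. The 2 that fell in BY4741 were GPM3, a phosphoglycerate mutase homologue (-0.54), and GCR2, a glycolysis regulator (-0.23), named after their values were seen. GCR2 was not called without any 1 of the 4 replicates (-0.21 to -0.24).

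GCY1 (YOR120W), for a glycerol dehydrogenase of an alternative glycerol route, rose in all 3 groups. Its ratios ran from 0.77 to 1.71 in BY4741, from 2.56 to 3.16 in W303 pH 4.5 and from 0.85 to 1.05 at pH 6.0. The means were 1.36 ± 0.15 (SE, adjusted p = 0.00159), 2.79 ± 0.10 (SE, adjusted p = 1.01e-07) and 0.95 ± 0.09 (SE, adjusted p = 0.0127, n = 4 in each limma fit). The pH 6.0 call was lost without replicate 1, 2 or 4 (0.95, 0.91 and 0.98). DAK1 (YML070W), for the dihydroxyacetone kinase that follows on this route, rose by 0.59 in BY4741 and by 1.10 in W303 pH 4.5.

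The phosphoglucomutase gene PGM2 (YMR105C), which links glucose 6-phosphate to glycogen and trehalose, rose in W303 pH 4.5 by 2.71 ± 0.09 (SE, n = 4, adjusted p = 7.68e-08). At pH 6.0 it rose by 0.78 ± 0.14 (SE, n = 4, adjusted p = 0.0458). That pH 6.0 call was lost without replicate 1, 2 or 4 (0.81, 0.75 and 0.89). In BY4741 PGM2 had 0.84, 1.59, 0.90 and -0.36 and was not called. EMI2 (YDR516C), a paralog of GLK1, rose by 0.36 in BY4741 and 1.20 in W303 pH 4.5, but its BY4741 call was lost without replicate 1, 2 or 3 (0.35, 0.31 and 0.31).

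PFK26 (YIL107C), for the kinase that makes the phosphofructokinase activator fructose 2,6-bisphosphate, rose by 0.39 in BY4741 and 1.25 in W303 pH 4.5; without BY4741 replicate 3 it was 0.33 and not called. TYE7 (YOR344C), an activator of glycolytic genes, rose by 0.43 and 1.04 in these groups, and PYC1 (YGL062W), for pyruvate carboxylase, by 0.53 and 1.03. PYC2 (YBR218C), the other pyruvate carboxylase gene, went the other way and was named after its values were seen. It fell by 0.27 in W303 pH 4.5 (limma adjusted p = 0.00305), and its means of -0.21 in BY4741 and -0.44 at pH 6.0 were not called. The cytosolic aldehyde dehydrogenase genes ALD2 (YMR170C) and ALD3 (YMR169C), which are near-identical neighbours, rose by 0.83 and 1.05 in BY4741 and by 1.63 and 1.97 in W303 pH 4.5. None of these was called at pH 6.0, where PYC1 had a mean of 0.00, ALD2 of -0.01 and TYE7 of 0.68 (adjusted p = 0.0728).

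In the comparison of backgrounds, 11 of 35 of these other genes had a higher ratio in W303 and 2 a lower one, and in that of pH, 0 had a higher and 10 a lower ratio at pH 6.0. Of all genes, 10.9% and 9.55% were called higher and lower between backgrounds, and 10.7% and 13.2% between pH values. The differences at pH 6.0 were -1.94 for PGM2, -1.84 for GCY1, -1.69 for ALD3, -1.64 for ALD2 and -1.03 for PYC1, all called by limma. With the arrays scaled to the same median absolute value, 3 of the 35 were called between backgrounds, and the GCY1 difference of 1.43 became 0.59 (adjusted p = 0.0529).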

How the data were processed

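Total RNA of a hal4hal5 mutant and its wild type was hybridised to 12 two-colour arrays, 4 biological replicates a group per the design text. The deposited values are log ratios of the 2 dyes, taken as log2; the authors' normalisation and filters, the log base and the genome build are not stated in these sources. Arrays held 4418 to 5696 values, with medians within 0.035 of 0, and 0 value columns were left unmapped. Signs were turned to mutant over wild type by the dye of the mutant (Cy5 on 7 arrays). The mutant was in Cy3 on replicates 2 and 4 of BY4741 and on replicates 1 and 3 of W303 pH 6.0. In W303 pH 4.5 it was in Cy3 on replicate 2 alone, so the dyes were not balanced in that group. As deposited, 10 of 11 pairs of arrays of opposite dye in a group correlated negatively (r -0.914 to 0.0906).

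Each group was fitted with limma 3.58.1 in R 4.3.3, 1 mean per gene with values on at least 3 of 4 arrays, in place of the one-class SAM of the design text, which was an alternative. Group differences were contrasts in 1 fit of 12 arrays with at least 3 values in every group. Tests were two-sided, with Benjamini-Hochberg adjustment over all genes tested in a comparison and a threshold of 0.05. Standard errors are moderated. The scripts were tested on simulated data. Each p measures the spread between these arrays, and no source says whether wild-type RNA was reused. The 32 genes and the 41 others were chosen with earlier results of these data known. All 32 are named, and of the 41 those called with 1 sign in all 3 groups or by at least 2-fold in any. Gene symbols came from RefSeq locus tags.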

Additional observations from a re-analysis of the deposited data

Results flagged for a closer look

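In 6 of the 92 groups of 4 arrays examined, 1 array lay far from the other 3, where chance gives about 1 in 20. In BY4741 these were replicate 2 for TPI1 (-0.54, others -0.15 to -0.09), replicate 2 for PDC6 (-0.12, others -0.54 to -0.48), replicate 4 for ADH3 (-0.59, others -0.22 to -0.19) and replicate 3 for ALD6 (0.22, others -0.65 to -0.53). In W303 they were replicate 3 of pH 4.5 for ADH4 (-0.046, others 0.23 to 0.28) and replicate 1 of pH 6.0 for GPP1 (0.45, others 0.26 to 0.29).

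Group differences passed the limma test in 28 cases. Between W303 and BY4741 at pH 4.5 the hexose kinase genes differed by 1.16 (HXK1), 0.52 (HXK2) and 1.78 (GLK1), and the upper glycolysis genes by 0.56 (PGI1), 0.62 (PFK2), 0.51 (FBA1) and 0.57 (TPI1). Lower glycolysis genes differed by 0.70 (TDH1), 0.48 (TDH2), 0.44 (TDH3), 0.44 (PGK1), 0.55 (ENO1), 0.36 (ENO2) and 0.54 (CDC19), all of which held shared values. With the shared values left blank, none of these could be tested. The 2 lower glycolysis genes that could be, GPM1 (0.45) and PYK2 (0.59), were not called. Ethanol and acetyl-CoA genes differed by 0.78 (PDC1), 0.49 (ADH1), 0.57 (ADH3), 0.62 (ADH5) and -0.51 (ACS2), and glycerol genes by 0.74 (GPD1) and 0.47 (GPD2). The GPD2 call was lost without any single array of BY4741 or W303 pH 4.5 (0.38 to 0.51). It was also lost with a dye term (0.43), with a replicate block (0.47) and with arrays scaled to the same median absolute value (0.45). The calls of FBA1, TDH2, TDH3, PGK1, ENO2 and ADH5 were lost without W303 replicate 3 or 4 of pH 4.5. They were also lost without BY4741 replicate 1, 3 or 4. That of HXK2 was lost without W303 replicate 1, 3 or 4 and without BY4741 replicate 1 or 4. Those of TDH1, ENO1 and ADH1 were lost without W303 replicate 3 or 4, and that of ADH1 also without BY4741 replicate 3. The ADH3 call was lost without W303 replicate 3 or BY4741 replicate 4, and the TPI1 call without W303 replicate 4. A replicate block removed the calls of HXK2, FBA1, TDH1, TDH2, TDH3 and ENO2, and centring arrays on the median those of FBA1, TDH3 and ENO2.

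Between pH 6.0 and pH 4.5 in W303 the differences were -1.61 (HXK1), -0.69 (HXK2), -1.69 (GLK1), -0.39 (PGK1), 0.65 (PDC6), 0.58 (ADH4) and 0.70 (GPP1).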

How the results depend on the processing

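No value of the 32 genes changed sign while called under any alternative run. Counts of called genes are given for the 32 genes and then for the 41 others. The shares of all genes called in these runs are not given beside them. Requiring at least 1.5-fold took 10 and 14 to 4 and 4 in BY4741, 30 and 26 to 11 and 11 in W303 at pH 4.5, and 21 and 13 to 7 and 8 for W303 minus BY4741, by construction. At pH 6.0, 2 and 2 became 1 and 1 with genes on at least 2 arrays, 1 and 1 with a dye term, 1 of the 32 with genes on all 4 arrays, 6 and 5 with array weights, and 4 of the 41 with one-class SAM. For W303 minus BY4741, 21 and 13 became 9 and 3 with arrays scaled to the same median absolute value; the 32 gave 11 with shared values left blank (fewer genes tested), and the 41 gave 21 with array weights. Array weights took the pH difference of the 32 from 7 to 12. Requiring all 4 arrays left out ADH4 at pH 6.0 by construction, as it had no value on replicate 3. Where no construction is named, the cause was not tested.

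Leaving out 1 replicate gave 5 to 9 and 7 to 12 in BY4741, 27 to 28 and 23 to 28 in W303 at pH 4.5, 0 to 4 and 0 to 5 at pH 6.0, 8 to 19 and 8 to 12 for W303 minus BY4741, and 5 to 10 and 7 to 11 for the pH difference. With the replicate number as a block, 14 and 11 were called for W303 minus BY4741 and 7 and 9 for pH. The correlations of deviations of same-numbered arrays were 0.129, -0.0482, 0.0812 and -0.135 between backgrounds and 0.209, 0.100, -0.171 and -0.0796 between pH. They cannot show whether the numbers pair the arrays, as some same-numbered arrays held the mutant in different dyes. Signal over background is unknown, so its limit on each gene cannot be given.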
